A study of Mus musculus with 6 samples.

Results

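The genes described here carry the signal from bacterial products at the cell surface to the transcription factor NF-kB, or switch that signal off again. Of 10 genes chosen by symbol (Tlr2, Tlr4, Cd14, Lbp, Myd88, Nfkb1, Nfkbia, Nfkbib, Tnfaip3 and Irak1), 7 of the 8251 genes named on the array were found, on 8 of the 12422 probe sets that remained after array controls were set aside, and Nfkbia had 2 of them. Tlr2, Tlr4 and Nfkb1 were not analysed here, so that the 2 receptors themselves and 1 subunit of NF-kB have no value. The small intestine of 3 Cftr null mice, CFTR(-/-), was set against that of 3 Cftr control mice, CFTR(+/+), all congenic on the black6 background and 40 days old. Cftr encodes a chloride and bicarbonate channel of epithelial cells. Every mouse had been given the liquid diet Peptamen from day 10, which keeps the gut from becoming blocked, so the diet is common to both groups. Each group held 2 males and 1 female, the females being null replicate 2 and control replicate 3. RNA of the whole small intestine of 1 mouse was put on each array, so all cell layers were read together, and the labels do not say how the Cftr gene was inactivated.

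Bacterial lipopolysaccharide is bound in body fluids by the protein of Lbp, which hands it to Cd14, a co-receptor without a signalling part of its own, and from there to the receptor Tlr4. Toll-like receptors then recruit the adaptor Myd88 and kinases such as Irak1, and the signal leads to the breakdown of the IkB proteins, among them those of Nfkbia and Nfkbib, which hold NF-kB in the cytoplasm. Nfkbia and Tnfaip3, which encodes the ubiquitin-editing enzyme A20, are themselves targets of NF-kB and form feedback loops that end the response. In the gut these genes are known from epithelial cells, which face the bacteria of the lumen, and from macrophages of the lamina propria.

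Values are scaled intensities in arbitrary units, and their equal 2%-trimmed means of 500.3 on all 6 arrays show a scaling common to both groups. The labels were checked on Cftr, whose brightest probe set gave 325.9, 295.6 and 368.5 in null replicates 1 to 3, against 801.6, 1018 and 1002 in control replicates 1 to 3. Enterocyte markers summed to between 37228 and 65710 in null mice and between 77788 and 91882 in control mice. On the array were 6 of 8 genes, and all 6 were bright enough to be tested. Of these, 0 passed the test between null and control mice, and 0 had a log2 change above 0. Lct (569.1 to 4816 in null mice, 10866 to 11317 in control mice), Fabp2 and Apoa4 were lower in every null mouse than in any control mouse. Fabp1, Vil1 and Epcam overlapped between the groups. Of the liver, the main source of Lbp in the body, 5 of 6 hepatocyte markers on the array lay below 109.7, the 40th percentile of all values, in every mouse, and their sum was between 255.7 and 316.3 in null mice and between 259.9 and 303.8 in control mice. In whole tissue, fewer cells of a type and less RNA per cell cannot be told apart. With 3 mice a group, precision is low throughout.

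None of the 8 probe sets passed the test between null and control mice. Cd14, Myd88 and both probe sets of Nfkbia had values in all 3 null mice above those of all 3 control mice. Their fitted changes between the group averages were 1.37-fold to 1.59-fold. Lbp, Nfkbib and Tnfaip3 were higher on average in null mice, but the groups overlapped, and Irak1 was level. Fold changes are on the scale of log2(value + 12), which understates changes of dim genes, and the test was limma with a threshold of 0.05 on p-values adjusted over all 7601 probe sets tested. All 8 were bright enough to be tested; 0 were called higher and 0 lower, where 1.13% of all tested probe sets were called higher and 1.87% lower. At an unadjusted limma p under 0.05, 4 of the 8 were higher and 0 lower, against 9.10% of all tested probe sets that were higher at that level. The groups did not overlap in 4 of the 8, all higher in null mice, as in 13.1% of all tested probe sets. The median log2 change of the 8 was 0.46, that of all tested probe sets 0.03. As the genes were chosen with results of these arrays known, these shares describe them and test nothing.

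**Figure D1:**
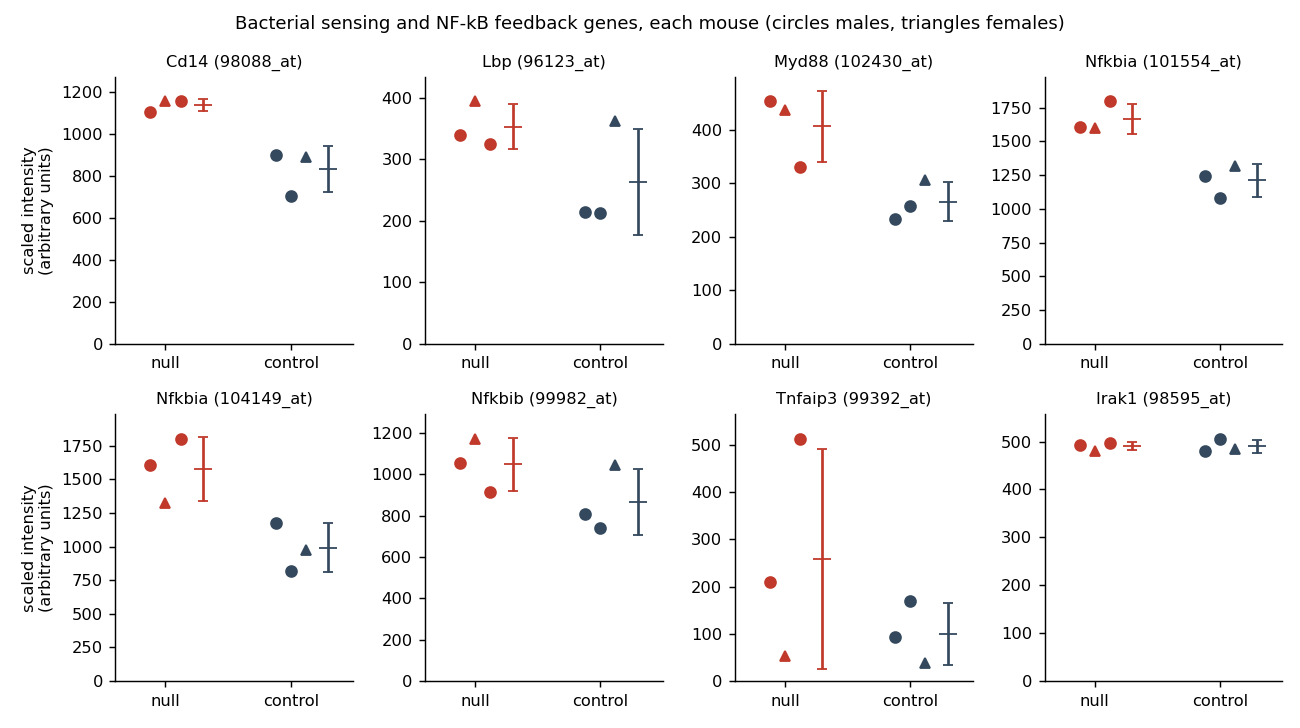
Scaled intensity of each of the 8 probe sets in each mouse, null at the left and control at the right of each panel; circles are males, triangles are females, and the bar beside them is the mean with its SD (n = 3). All 3 null mice lie above all 3 control mice for Cd14, Myd88 and both Nfkbia probe sets, and the 6 mice are nearly level for Irak1.

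At the start of the pathway, Lbp, which carries lipopolysaccharide to Cd14, had 339.7, 394.3 and 325.3 in null replicates 1 to 3, against 213.5, 212.4 and 362.1 in control replicates 1 to 3. The female control mouse lay among the null mice, and the male controls lay below all of them. Lbp averaged 353.1 ± 36.4 in null mice and 262.7 ± 86.1 in control mice (SD, n = 3 each), a log2 change of 0.45 (95% interval -0.06 to 0.96, limma adjusted p = 0.346).

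Cd14, the co-receptor, had 1105, 1156 and 1156 in null replicates 1 to 3, against 901.0, 705.9 and 888.1 in control replicates 1 to 3. The null mice were close to one another, with an SD that was 2.56% of their mean, whereas that of the control mice was 13.1% of theirs. The groups did not overlap, and the log2 change was 0.46 (95% interval 0.15 to 0.76), which did not pass (limma adjusted p = 0.122). Cd14 is known as a marker of monocytes and macrophages. Of 8 macrophage marker genes tested, 0 rose and 1 fell. This was the lysozyme gene Lyz2, at 3687 ± 216 in null mice, against 6598 ± 1340 in control mice (limma adjusted p = 0.0437). That call ended in 5 of 10 other settings and in 5 of 6 fits that left out a mouse. Only the fit without control replicate 2 kept it. A second Lyz2 probe set was too dim to be tested and overlapped (7.5 to 12.3 in null mice, 9.6 to 44.8 in control mice). Which cells of the whole tissue gave the Lyz2 signal was not tested. The 11 macrophage markers on the array summed to between 10380 and 11238 in null mice and between 11610 and 14087 in control mice, but Lyz2 alone set that gap: the other 10 summed to between 6532 and 7773 in null mice and between 6498 and 6645 in control mice, and overlapped. The median log2 change of the 8 tested was 0.07, and 4 of the 8 were above 0. The lysosomal marker Cd68 (410.7 to 431.1 in null mice, 316.0 to 401.0 in control mice) and the complement gene C1qc (1496 to 1714 in null mice, 1366 to 1483 in control mice) were higher in every null mouse than in any control mouse, and neither passed. On its brighter probe set, the marker Fcgr1 (184.0 to 211.7 in null mice, 215.7 to 293.0 in control mice) went the other way. Fcgr1 was lower in every null mouse than in any control mouse, and did not pass (limma adjusted p = 0.447). Both the Cd68 and this Fcgr1 probe set have names that mark possible cross-hybridization. Of the 8 tested, 2 were higher and 2 lower with groups that did not overlap, against 13.1% and 10.8% of all tested probe sets. The complement gene C1qa was at 1558 ± 145 in null mice and 1565 ± 14.1 in control mice (SD, n = 3 each).

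Myd88, the adaptor of most Toll-like receptors, had 452.6, 435.7 and 329.2 in null replicates 1 to 3, against 233.2, 256.5 and 305.2 in control replicates 1 to 3. The lowest null mouse, replicate 3, was close to the highest control mouse, the female, but the groups did not overlap. Its averages were 405.8 ± 66.9 in null mice and 265.0 ± 36.7 in control mice (SD, n = 3 each), 1.5-fold (log2 change 0.59, 95% interval 0.19 to 0.99), which did not pass (limma adjusted p = 0.133).

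Irak1, the kinase that acts after Myd88, had 492.8, 480.5 and 496.8 in null replicates 1 to 3, against 480.0, 505.9 and 484.1 in control replicates 1 to 3. Both groups averaged 490.0, with an SD of 8.49 in null mice and 13.9 in control mice (n = 3 each). The 95% interval of its log2 change ran from -0.25 to 0.25 (limma adjusted p = 0.999). Its p-value ranked 7593 of 7601, so nearly every other tested probe set had a smaller one.

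The inhibitor Nfkbia, IkB alpha, was read by 2 probe sets. Its first probe set, 101554_at, had 1606, 1601 and 1798 in null replicates 1 to 3, against 1244, 1077 and 1318 in control replicates 1 to 3. Its second, 104149_at, had 1604, 1325 and 1803 in null replicates 1 to 3, against 1179, 816.0 and 976.8 in control replicates 1 to 3. On both, the groups did not overlap, null replicate 3 was the highest mouse and control replicate 2 the lowest. The log2 change was 0.46 on the first (95% interval 0.17 to 0.74, limma adjusted p = 0.102) and 0.67 on the second (95% interval 0.27 to 1.07, limma adjusted p = 0.0935). The second had the smallest adjusted p of the 8 probe sets, and it missed the threshold. The 2 probe sets read 1 gene in the same mice and are not independent of each other.

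Nfkbib, IkB beta, had 1055, 1172 and 916.1 in null replicates 1 to 3, against 809.6, 740.1 and 1047 in control replicates 1 to 3. The female control mouse again lay among the null mice. The log2 change was 0.28 (95% interval -0.10 to 0.66, limma adjusted p = 0.431).

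Tnfaip3, the A20 feedback enzyme, was the most uneven of the 8, with 209.1, 53.7 and 513.6 in null replicates 1 to 3, against 93.0, 169.3 and 38.3 in control replicates 1 to 3. In both groups the female was the lowest mouse. The SD was 90.4% of the mean in null mice and 65.7% in control mice. It lay above the filter level of 109.7 in 3 of the 6 mice, the fewest that allow a test, and the mean of the control mice lay below it. The fitted log2 change of 1.0 has a 95% interval from -0.75 to 2.75 (limma adjusted p = 0.557), which covers a fall as well as a rise. It was 0.29 without null replicate 3 and 1.79 without null replicate 2.

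**Figure D2:**
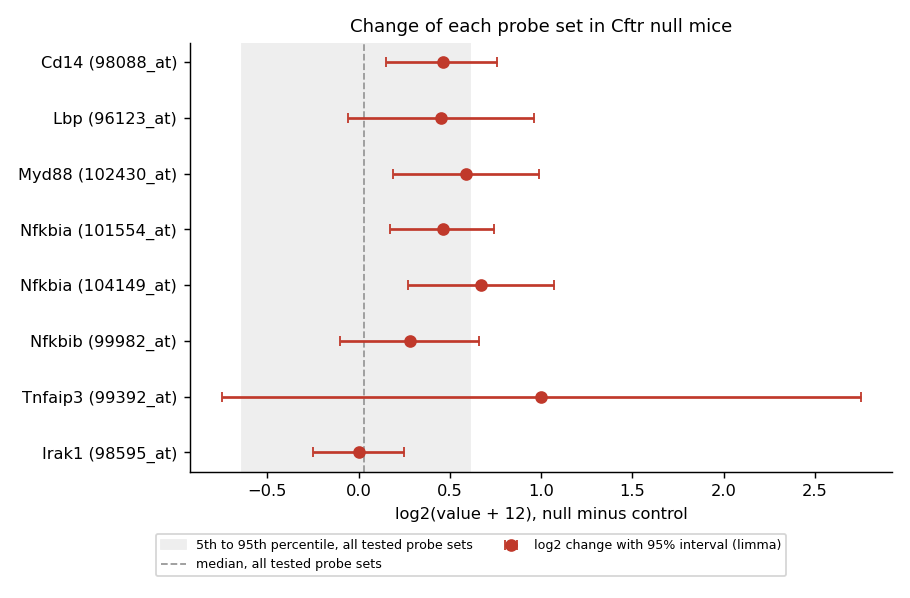
Log2 change of each probe set, null minus control, on the scale of log2(value + 12), with its 95% interval from limma (n = 3 mice each); the grey band spans the 5th to 95th percentile of all 7601 tested probe sets and the dashed line is their median. The intervals of Cd14, Myd88 and both Nfkbia probe sets lie above 0 before adjustment over all probe sets, and that of Tnfaip3 is the widest.

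The genes did not vary alike from mouse to mouse. Against the control mean, null replicate 3 stood highest for both Nfkbia probe sets (log2 differences of 0.57 and 0.87) and for Tnfaip3 (2.41), but it was the lowest null mouse for Lbp (0.34), Myd88 (0.31) and Nfkbib (0.10). Null replicate 2, the female, was the highest mouse for Lbp (0.61) and Nfkbib (0.45). Control replicate 2 was the lowest of all mice for 5 of the 8 probe sets and control replicate 3, the female, the lowest for Tnfaip3. No null mouse was the lowest for any of the 8.

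**Figure D3:**
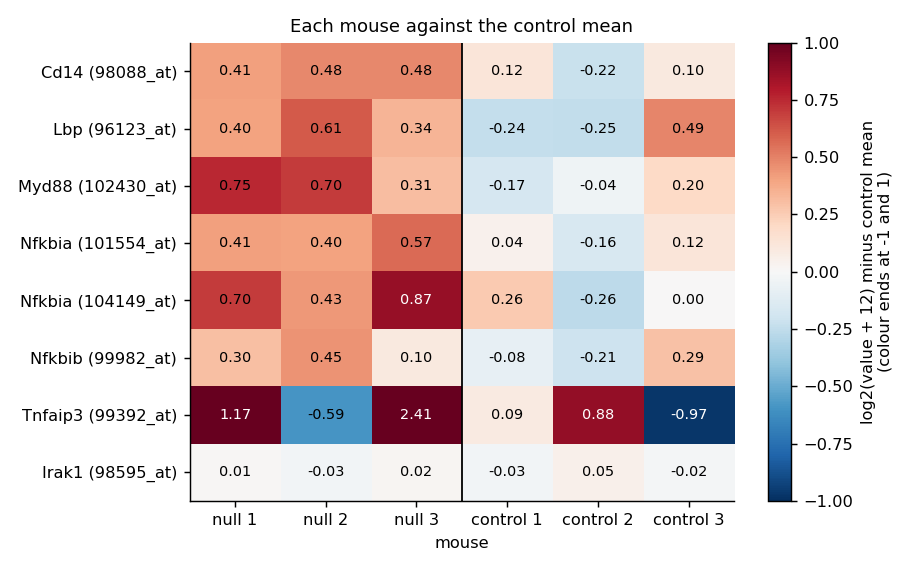
Difference of each mouse from the mean of the control mice on the scale of log2(value + 12), for the 8 probe sets (rows) in the null mice (left of the line) and control mice (right of it); red is above and blue below the control mean, and the colours end at -1 and 1. Irak1 stays between -0.03 and 0.05 in all mice, and Tnfaip3 reaches 2.41 in null replicate 3.

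Among males alone, 7 of the 8 probe sets, all but Irak1, did not overlap between the 2 null and 2 control mice and were higher in null mice, as were 24.5% of all tested probe sets. Taking males alone was chosen after the values were seen for this count, and 0 of the 8 passed there. The log2 difference was 0.61 in males and 0.12 in females for Lbp, and 0.55 in males and 0.28 in females for the first Nfkbia probe set. A test for a difference between males and females in the response to genotype called 0 of the 8 (limma interaction, 0 at an unadjusted p under 0.05 as well) and 0 of all tested probe sets, of which 3.10% had an unadjusted p under 0.05. With 1 female in each group this interaction is poorly measured.

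For Nfkbia and Tnfaip3, the feedback genes, the 250 bases before the start site are shown because both are textbook targets of NF-kB, and those of Myd88 and Irak1 are shown beside them as the adaptor whose groups did not overlap and the kinase that was level. They come from RefSeq, build GRCm38.p6, where 5 of the 7 measured genes had such a window. The NF-kB consensus of 10 bases (3 G, a purine, any base, A or T, 2 pyrimidines, 2 C) was searched on both strands, allowing overlaps, and its matches are in capitals. Sequences run 5′ to 3′ on the strand of the gene.
Nfkbia, chr12:55492648-55492897, minus strand: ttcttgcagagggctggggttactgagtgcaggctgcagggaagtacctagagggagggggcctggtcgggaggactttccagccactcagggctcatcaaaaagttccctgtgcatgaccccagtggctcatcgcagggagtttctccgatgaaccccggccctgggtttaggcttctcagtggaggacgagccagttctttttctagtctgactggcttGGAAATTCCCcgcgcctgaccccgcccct
Tnfaip3, chr10:19015411-19015660, minus strand: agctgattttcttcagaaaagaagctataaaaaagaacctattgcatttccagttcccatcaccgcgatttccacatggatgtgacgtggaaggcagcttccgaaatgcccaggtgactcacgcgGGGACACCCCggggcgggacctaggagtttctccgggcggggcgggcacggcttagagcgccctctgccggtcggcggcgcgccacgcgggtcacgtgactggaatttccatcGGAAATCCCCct
Myd88, chr9:119340019-119340268, minus strand: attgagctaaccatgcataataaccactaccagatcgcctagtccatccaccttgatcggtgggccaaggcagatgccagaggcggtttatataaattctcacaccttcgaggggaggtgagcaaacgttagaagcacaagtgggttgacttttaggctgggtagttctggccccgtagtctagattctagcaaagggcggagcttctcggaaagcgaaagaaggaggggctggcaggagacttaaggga
Irak1, chrX:74023922-74024171, minus strand: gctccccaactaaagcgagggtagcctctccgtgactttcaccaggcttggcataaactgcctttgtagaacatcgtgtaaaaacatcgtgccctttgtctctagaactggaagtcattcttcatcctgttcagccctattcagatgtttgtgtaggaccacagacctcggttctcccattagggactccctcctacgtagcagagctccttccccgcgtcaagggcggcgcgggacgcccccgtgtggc
The Nfkbia window holds 1 match, GGAAATTCCC, whose first base lies 29 bases before the start site. The Tnfaip3 window holds 2, GGGACACCCC at 125 and GGAAATCCCC at 12 bases before the start site, whereas the window of a second Tnfaip3 start site, not shown, holds 0. Of the 7 windows of the 5 genes, 2 hold a match. No match to the consensus was found in these windows of Myd88 and Irak1, nor in that of Nfkbib. Of 32851 windows of this length in the RefSeq table, 3.90% hold a match. Stretches that miss the consensus by 1 base number 6 in the Nfkbia window, 6 in the Tnfaip3 window shown and 2 in the second one. The Irak1 window holds 3, and those of Myd88 and Nfkbib hold 0. Of all windows, 39.6% hold a match or such a stretch. A match describes the letters and does not show that NF-kB binds there.

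The wider pathway was read through 5 lists of 93 genes, of which 67 were on the array and 46 were bright enough to be tested, each by its brightest tested probe set. In these lists 4 of the 46 genes rose and 0 fell, where 1.13% of all tested probe sets were called higher and 1.87% lower. Of these 4, Cxcl1, Cxcl5 and Saa3 entered the test through the null mice alone, so the count of 4 supports nothing by itself. Altogether 35 of the 46 had a log2 change above 0, as did 54.3% of all tested probe sets. Of the 46, 11 were higher and 2 lower in null mice with groups that did not overlap, against 13.1% and 10.8% of all tested probe sets. Tlr6 also entered the test through the null mice alone. It, Cxcl1, Cxcl5 and Saa3 therefore had to be among the 35 and among the 11, so these counts support nothing by themselves either. The lists were chosen with results of these arrays known, and their counts are a description.

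Among 10 inhibitors and feedback genes tested, 1 rose and 0 fell, with a median log2 change of 0.42. The 1 was Nfkbiz, which encodes IkB zeta, a nuclear IkB protein induced by Toll-like receptor and interleukin 1 signals. Nfkbiz had 1821, 1761 and 1523 in null replicates 1 to 3, against 808.6, 781.4 and 738.4 in control replicates 1 to 3. The groups were far apart and narrow, at 1702 ± 157 in null mice and 776.1 ± 35.4 in control mice (SD, n = 3 each). The log2 change was 1.12 (SE 0.12, limma adjusted p = 0.00450), and it passed in all 6 fits that left out 1 mouse and in all 10 other settings, with adjusted p-values from 0.00390 to 0.0448. A second, dim probe set of Nfkbiz, whose name marks possible cross-hybridization, had 75.9, 62.7 and 68.2 in null mice and 48.8, 30.6 and 43.0 in control mice and was not tested.

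Among 18 NF-kB target genes tested, 3 rose and 0 fell, with a median log2 change of 0.21. They were the acute phase gene Saa3, at least 2.73-fold higher (185.8 to 524.3 in null mice, 6.1 to 48.8 in control mice, limma adjusted p = 0.0199), and the chemokines for neutrophils Cxcl1, at least 1.89-fold higher (140.2 to 296.8 in null mice, 19.6 to 38.5 in control mice, limma adjusted p = 0.0151), and Cxcl5, at least 1.42-fold higher (144.8 to 194.3 in null mice, 34.2 to 56.7 in control mice, limma adjusted p = 0.0416). For these 3 genes every control value lay under the filter level, so they were tested only because the null mice were bright, had to differ, and were not tested under the stricter filter. Their folds are therefore bounds, with the filter level put in place of the control mice. The call of Cxcl5 ended in each of the 6 fits that left out 1 mouse, with adjusted p-values from 0.0675 to 0.169. Cxcl1 no longer passed once control replicate 1 was left out (adjusted p = 0.0517), and likewise for null replicate 1 (adjusted p = 0.0899) and for null replicate 3 (adjusted p = 0.0892). Saa3 no longer passed once null replicate 1 was left out (adjusted p = 0.101), and likewise for null replicate 3 (adjusted p = 0.0892). Of the 30 target genes on the array, 9 were under the filter level in every mouse, and the cytokine genes Tnf (39.2 ± 5.20 in null mice, 26.4 ± 2.25 in control mice) and Il1b (43.4 ± 27.1 in null mice, 24.0 ± 5.46 in control mice) were among those too dim to be tested.

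In the other 3 lists no gene passed. Of 5 receptors and co-receptors tested, with a median log2 change of 0.11, the brightest were the peptidoglycan recognition protein Pglyrp1, at 2167 ± 336 in null mice and 1004 ± 523 in control mice (log2 change 1.24, limma adjusted p = 0.144), and the tumour necrosis factor receptor Tnfrsf1a, at 1055 ± 148 in null mice and 1029 ± 131 in control mice. The null mice all lay above the control mice for Pglyrp1. Of 10 adaptors and kinases tested, with a median log2 change of 0.15, the brightest were Tab2, an adaptor of the kinase Map3k7, at 2162 ± 143 in null mice and 1776 ± 145 in control mice (limma adjusted p = 0.263), and Tradd, an adaptor of tumour necrosis factor receptors, at 2088 ± 298 in null mice and 1844 ± 453 in control mice. The name of the Tradd probe set marks possible cross-hybridization. Of 3 NF-kB subunits tested, with a median log2 change of 0.07, Rela was at 1594 ± 218 in null mice and 1450 ± 146 in control mice, and Relb at 532.5 ± 26.2 in null mice and 583.7 ± 75.7 in control mice (SD, n = 3 each).

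**Figure D4:**
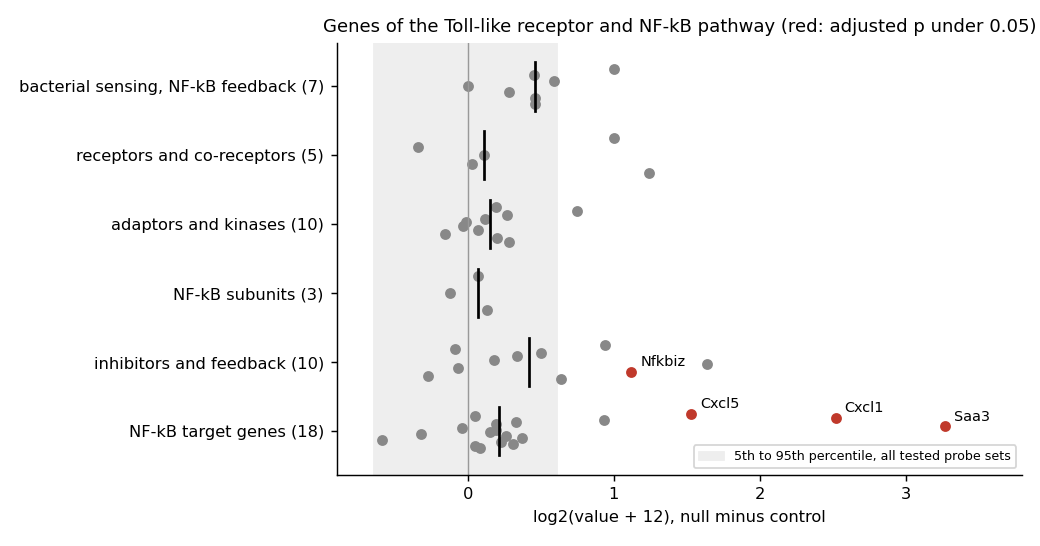
Log2 change, null minus control, of each tested gene of the 7 bacterial sensing and NF-kB feedback genes (top) and of the 5 pathway lists, 1 point per gene by its brightest tested probe set, with the number of genes in brackets; black bars are medians, red points passed the test, and the grey band spans the 5th to 95th percentile of all tested probe sets. Nfkbiz, Cxcl1, Cxcl5 and Saa3 are the points that passed.

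Markers of other cells were read in the same mice, since NF-kB genes are expressed in many of them. Neutrophil markers summed to between 1373 and 1763 in null mice and between 1072 and 1690 in control mice; 5 of the 9 were below the filter level in every mouse, and 0 of the 3 tested passed. That sum rests mostly on Csf3r (732.2 to 1066 in null mice, 523.7 to 1102 in control mice), and the other 8 summed to between 640.7 and 714.4 in null mice and between 548.3 and 597.1 in control mice, without overlap. The granule gene S100a8 (70.2 to 142.0 in null mice, 26.9 to 61.3 in control mice), its partner S100a9 (18.4 to 93.8 in null mice, 4.0 to 15.6 in control mice) and the brighter probe set of the myeloperoxidase gene Mpo (57.8 to 74.3 in null mice, 30.2 to 53.1 in control mice) were higher in every null mouse than in any control mouse, but too dim to be tested. Of the same list, Elane (171.6 ± 20.4 in null mice, 191.6 ± 12.1 in control mice) was lower on average in null mice. So was Camp (132.8 ± 14.0 in null mice, 139.0 ± 38.7 in control mice), and both overlapped between the groups. Ngp, Cxcr2 and Ly6g overlapped as well. The 3 tested markers had a median log2 change of -0.03, with 1 above 0. Lymphocyte markers summed to between 654.6 and 832.8 in null mice and between 881.1 and 945.6 in control mice, with 0 of 3 tested called. Each of the 5 lymphocyte markers on the array overlapped between the groups when taken singly. Smooth muscle markers summed to between 12377 and 16073 in null mice and between 6672 and 9619 in control mice, and 1 of 5 rose, gamma-2 actin, Actg2 (7351 ± 1280 in null mice, 2904 ± 709 in control mice, limma adjusted p = 0.0151), from a probe set whose name marks possible cross-hybridization. The call of Actg2 ended without null replicate 1 (adjusted p = 0.0760), without null replicate 3 (adjusted p = 0.0552) and in males alone (adjusted p = 0.0507). Pancreatic acinar markers summed to between 1552 and 2722 in null mice and between 2173 and 2478 in control mice, and 0 of 4 tested passed. Enterocyte and smooth muscle sums did not overlap between the groups, nor did those of lymphocyte markers and, only with Lyz2 included, of macrophage markers. The part of these cell markers in the values of Cd14, Myd88, Nfkbia, Nfkbiz, Cxcl1 and Cxcl5 was not tested.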

How the data were processed

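Per the labels, TRIzol was used to prepare total RNA from the whole small intestine of 6 mice, which was read on 1-colour Affymetrix mouse arrays. The deposited table holds linear intensity values for probe sets, scaled before deposit; the software and background steps are not given in the sources used here, and detection calls were not used. Of 12488 probe sets, 66 array controls were set aside; 10833 of the rest had 1 gene symbol, 396 several and 1193 none, and genes were named only from the first kind.

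Values became log2(value + 12), 12 being their 10th percentile. A probe set was tested if above 109.7, the 40th percentile, in at least 3 of the 6 arrays, leaving 7601. The 2 genotypes were compared by limma 3.58.1 in R 4.3.3 (two-sided; eBayes with a variance trend), p-values were adjusted by Benjamini-Hochberg over all tested probe sets, and the threshold was 0.05. A model with sex and its interaction with genotype was fitted too, and functions were tested on simulated data. Fold bounds set the dim group at the filter level.

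The genes and lists were chosen with earlier results of these data known. The text names every member, and from each pathway list up to 4 genes that passed, or else the 2 brightest. Tnf, Il1b, C1qa, C1qc, Cd68, Fcgr1, S100a8, S100a9, Mpo, Csf3r, Elane, Camp, Ngp, Cxcr2, Ly6g and the genes of the closing observations were picked with their values in view. So were Lct and the marker sums without Lyz2 or Csf3r. The names of all 8 member probe sets carry no mark of possible cross-hybridization. Alternatives were quantile normalization, equal medians, pseudocounts of 3 and 48, no filter, a filter at 288.7, sex as a covariate, males only, other variance models, and leaving out each mouse. The labels give no batch or pairing.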

Additional observations from a re-analysis of the deposited data

How the results depend on the processing

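Of the 8 probe sets, 0 were called higher and 0 lower under each of the 10 other settings and in each of the 6 fits without 1 mouse; the smallest adjusted p of any of them was 0.0735 (filter at the 60th percentile, under which Tnfaip3 was not tested). The interaction of genotype and sex called 0 of the 8 wherever it could be fitted, which was not the case for males only, for sex as a covariate or without either female. The log2 change of Irak1 lay between -0.03 and 0.02, so its sign has no meaning; that of the other 7 stayed above 0 throughout, between 0.18 and 1.79. The count of 4 probe sets whose groups did not overlap, all higher in null mice, held under quantile normalization and equal medians and was 7 in males only. Over all tested probe sets, 50 rose and 85 fell in males only and 49 rose and 92 fell without the variance trend, against 86 and 142. Leaving out a mouse gave between 17 and 68 that rose and between 35 and 117 that fell: without null replicate 1 the counts were 17 and 35, without null replicate 3 they were 28 and 56, those without control replicate 1 were 31 and 45, and those without control replicate 2 were 68 and 87. Of the pathway genes that passed, Cxcl5 did not pass in males only (adjusted p = 0.138) or with sex as a covariate (adjusted p = 0.0624). The call of Lyz2 ended with equal medians (adjusted p = 0.0602), no filter (adjusted p = 0.0686), sex as a covariate (adjusted p = 0.0551), males only (adjusted p = 0.217) and no variance trend (adjusted p = 0.0811). The causes were not tested. No paired analysis was possible because the labels give no replicate numbers that the groups share. Dim genes such as Tnfaip3 are limited by signal over background, which the files do not give.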

Other observations

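Other feedback, target and receptor genes of the pathway stood apart between the groups without passing the test or being tested. They were chosen after their values were seen. Socs3, which restrains cytokine receptors that signal through Stat3, had 911.4, 1514 and 1907 in null replicates 1 to 3, against 310.7, 210.0 and 672.0 in control replicates 1 to 3 on 1 probe set (log2 change 1.93, limma adjusted p = 0.0556). Its brighter one, whose name marks possible cross-hybridization, gave a log2 change of 1.64 (limma adjusted p = 0.0585). Socs1, which restrains interferon signals, had 363.4, 608.5 and 534.4 in null replicates 1 to 3, against 251.7, 207.0 and 301.2 in control replicates 1 to 3 (log2 change 0.94, limma adjusted p = 0.0719). The chemokine Cxcl2 was too dim to be tested, with 200.8, 80.6 and 115.6 in null replicates 1 to 3, against 11.5, 6.0 and 12.4 in control replicates 1 to 3. Tlr6, a receptor that pairs with Tlr2, was at 135.2 ± 14.3 in null mice and 61.9 ± 10.7 in control mice (SD, n = 3 each; limma adjusted p = 0.107), at least 1.21-fold with the filter level in place of the control values, which all lay under it. For each of these 4 genes every null mouse lay above every control mouse, which Tlr6 had to do in order to be tested. Of the tested pathway genes, 2 stood apart the other way without passing. They were the feedback gene Zfp36 (1098 to 1222 in null mice, 1231 to 1662 in control mice) and the target gene Birc2 (333.3 to 388.2 in null mice, 403.1 to 510.5 in control mice). So did Cd36 of the receptor list, too dim to be tested, on its brighter probe set (8.6 to 36.9 in null mice, 51.4 to 94.9 in control mice).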
